A study of Mus musculus with 72 samples.

Results

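The BCL2 family decides at the mitochondrial outer membrane whether a cell starts apoptosis, and 10 of its genes were followed here in mouse ovarian follicles given follicle-stimulating hormone (FSH). The genes were chosen by name, as the rows with the symbols Bcl2, Bcl2l1, Bcl2l2, Mcl1, Bax, Bak1, Bcl2l11, Bmf, Bbc3 and Bid, and all 10 were found among the 56691 gene identifiers of the count table. Early secondary follicles, in which granulosa cells surround the oocyte, were cultured for 24 h with FSH21 (hypoglycosylated FSH) or FSH24 (fully glycosylated FSH) at 1 or 10 ng/ml, or with no FSH. The 18 libraries formed 6 groups of 3, and the labels name no strain, age or separate animals behind them. The p-values therefore weigh each change against the scatter among these libraries, which may be technical in part. Libraries numbered 1, 5 and 6 were the 1 ng/ml groups and 3 untreated libraries, called low-dose controls here. Libraries numbered 2, 3 and 4 were the 10 ng/ml groups and the other untreated libraries, called high-dose controls. Each FSH group was compared with the untreated libraries of its own numbers.

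Apoptosis through mitochondria begins when BAX or BAK1 opens the outer membrane and lets cytochrome c reach the cytosol, where it activates caspases. BCL2, BCL-XL (the product of Bcl2l1), BCL-W (Bcl2l2) and MCL1 bind these pore formers and hold them back. The BH3-only proteins BIM (Bcl2l11), BMF, PUMA (Bbc3) and BID carry death signals to the family, and caspase 8 cuts BID into its active form. Most ovarian follicles are lost by atresia, in which granulosa cells die by apoptosis, and FSH is known as a survival factor for them.

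At 10 ng/ml, Bcl2 and Bcl2l1 rose with either FSH form and Bid fell with FSH21 in edgeR's test. DESeq2, another tool, also called Bid lower with FSH24 (adjusted p = 0.0322). For either form, Bcl2l1 passed in only 2 of the 6 edgeR fits that each left out 1 library. Levels are given in counts scaled to the size of the library (CPM). Bcl2 showed the largest change of the family, from a mean of 21.1 CPM in the high-dose controls to 37.7 with FSH21 and 35.4 with FSH24. The pore formers Bax and Bak1, the protective genes Bcl2l2 and Mcl1 and the BH3-only genes Bcl2l11, Bmf and Bbc3 did not pass edgeR's test at any dose, although DESeq2 called Bcl2l2 and Bak1 with 10 ng/ml FSH24. No member passed it at 1 ng/ml, nor when FSH21 was set against FSH24.

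Each library held between 17512962 and 22509759 counts, and all 10 members were among the 18727 genes kept for testing. A gene was called when its adjusted p in edgeR's quasi-likelihood test was under 0.05. The cell types were checked on the summed level of marker genes. Granulosa markers summed to 4000 to 6230 CPM over the libraries of all groups and oocyte markers to 3510 to 4430 CPM. Stromal and smooth muscle markers, led by Col1a1 and Col1a2, were also present at 2500 to 4250 CPM. Theca markers summed to 10.8 to 39.4 CPM and immune markers to at most 2.32 CPM. The defining genes of granulosa cells and oocyte were thus present in every library, and collagen genes of stroma were too. In such mixed RNA, a change in the number of cells of a type and a change of RNA per cell cannot be told apart.

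The sequences upstream of the start sites are shown for the members called at 10 ng/ml, because these are the genes whose transcripts moved. They were taken from RefSeq on GRCm38.p6, on the minus strand, at chr1:106714291-106714540 for Bcl2, chr2:152831729-152831978 for Bcl2l1 and chr6:120916854-120917074 for Bid. The Bid stretch holds 221 bases, since 29 exon bases of its window were left out, and the others hold 250 bases. For Bcl2l1, 2 further RefSeq windows lay wholly in annotated exons and are not shown. Capitals mark matches, on either strand, to the GC box GGGCGG, the core of the cyclic AMP response element (CRE), TGACG, and the full element, TGACGTCA. The FOXO motif GTAAACA and the E-box CACGTG were searched in the same way, as were the CCAAT box and the TATA box, the latter as TATAAA.
Bcl2: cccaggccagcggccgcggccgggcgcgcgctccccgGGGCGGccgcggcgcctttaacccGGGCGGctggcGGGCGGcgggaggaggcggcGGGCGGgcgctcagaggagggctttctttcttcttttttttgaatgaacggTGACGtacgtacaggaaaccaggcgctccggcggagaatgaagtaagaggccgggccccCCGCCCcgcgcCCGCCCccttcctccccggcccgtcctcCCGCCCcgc
Bcl2l1: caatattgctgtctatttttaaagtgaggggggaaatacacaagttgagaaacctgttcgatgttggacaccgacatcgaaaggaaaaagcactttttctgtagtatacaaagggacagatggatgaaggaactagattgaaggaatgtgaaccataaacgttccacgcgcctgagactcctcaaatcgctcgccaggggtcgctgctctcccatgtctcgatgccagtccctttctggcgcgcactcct
Bid: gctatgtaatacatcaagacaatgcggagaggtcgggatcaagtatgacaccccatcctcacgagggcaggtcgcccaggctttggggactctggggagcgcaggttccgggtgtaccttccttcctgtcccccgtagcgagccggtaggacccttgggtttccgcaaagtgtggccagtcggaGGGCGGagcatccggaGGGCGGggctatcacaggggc
The Bcl2 stretch was 74.8% G or C and held 7 GC boxes and 1 CRE core. The Bid stretch was 62.4% G or C and held 2 GC boxes, and the Bcl2l1 stretch was 47.6% G or C and held none of these motifs. The whole 250-base Bid window was 63.6% G or C and held 1 more GC box, which lay across the cut. Over 32851 mouse promoters in RefSeq, the median was 52.4% G or C in the 250 bases before the start, with exon bases kept. A GC box was found in 32.7% of these promoters, a CRE core in 17.8%, the full CRE in 1.55%, the FOXO motif in 3.17%, the E-box in 6.02%, the CCAAT box in 33.8% and the TATA box in 12.4%. The CRE core was counted alone or within the full element. These are matches of letters, and binding was not measured.

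In untreated follicles the 10 members spanned a wide range of levels. Other relatives of the family were not placed in this order. Compared per kilobase of exon, so that genes of different length can be set side by side, Mcl1 stood first in the high-dose controls with 37.3 ± 2.05 CPM per kb (SD, n = 3). Bax followed with 28.4 ± 2.45, Bak1 with 20.2 ± 0.905, Bcl2l1 with 18.5 ± 1.04 and Bcl2l2 with 13.5 ± 1.16 CPM per kb. The remaining members were lower, Bid at 5.37 ± 0.802, Bbc3 at 2.80 ± 0.247, Bcl2 at 2.31 ± 0.37, Bcl2l11 at 2.06 ± 0.293 and Bmf at 0.78 ± 0.238 CPM per kb. The ranges of the 3 libraries overlapped between Bak1 and Bcl2l1, between Bbc3 and Bcl2 and between Bcl2 and Bcl2l11, so these neighbours did not differ beyond their spread. With the longest transcript as the length, Bax came first at 40.7 CPM per kb and Mcl1 second at 37.3 CPM per kb, and Bcl2l1 passed Bak1 with 33.1 against 20.3 CPM per kb. With 10 ng/ml FSH21, Bcl2 reached 4.12 ± 0.251 CPM per kb and Bid 3.89 ± 0.368, with overlapping ranges of 3.83 to 4.29 and 3.47 to 4.17 CPM per kb. With the longest transcript as the length, Bid stayed above Bcl2 there, at 5.72 against 5.24 CPM per kb. They stood at 3.87 ± 0.155 and 4.21 ± 0.303 CPM per kb with 10 ng/ml FSH24. The protective transcript that changed most was therefore also the least abundant of the 4 protective members in every one of these groups.

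**Figure D1:**
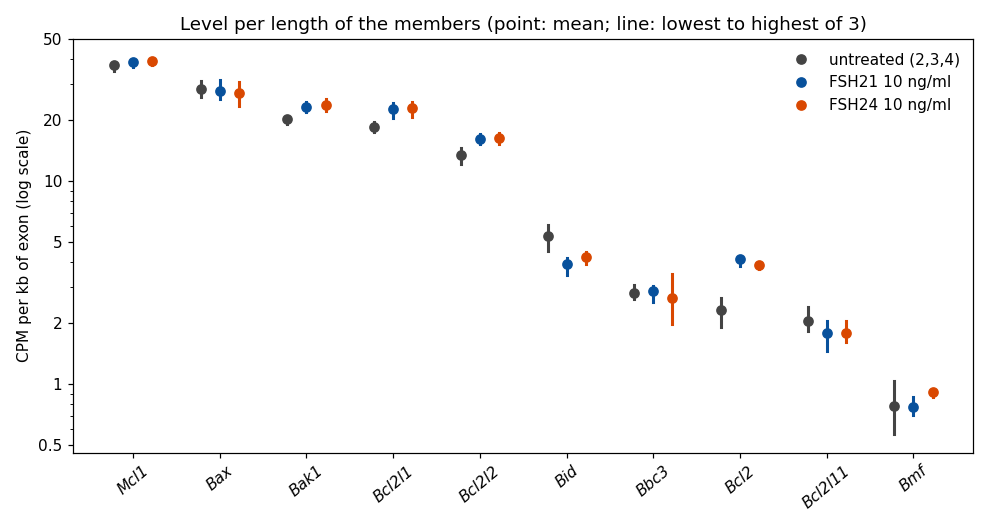
Level of each member per kilobase of exon (CPM per kb, log scale) in the high-dose controls and with 10 ng/ml FSH21 or FSH24, with points for the mean and lines from the lowest to the highest of 3 libraries. Bcl2 moves from 2.31 CPM per kb in the controls to 4.12 with FSH21 and 3.87 with FSH24, while Bid moves from 5.37 to 3.89 and 4.21.

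Bcl2 is the founding protective member and lies on the minus strand of chromosome 1 (ENSMUSG00000057329, GRCm38 chr1:106538178-106714274). The high-dose controls 2, 3 and 4 held 17.5, 24.3 and 21.5 CPM. The same numbers held 39.2, 38.8 and 35.0 CPM with 10 ng/ml FSH21. They held 34.0, 35.5 and 36.8 CPM with 10 ng/ml FSH24. Every library at 10 ng/ml lay above every high-dose control, the lowest treated library being at 34.0 and the highest control at 24.3 CPM. The log2 fold change was 0.84 (SE 0.12, 1.78-fold, adjusted p = 0.000116) with FSH21 and 0.75 (SE 0.12, 1.68-fold, adjusted p = 0.000482) with FSH24. Both calls held in all 12 other fits, which changed the tool, the filter, the scaling, the controls or left out a library. The log2 fold change ranged from 0.71 to 0.93 for FSH21 and from 0.62 to 0.84 for FSH24 over these fits. An antisense gene shares 558 exon bases with Bcl2, and it held 3 counts in total over the 18 libraries.

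At 1 ng/ml, Bcl2 was at 26.7, 25.6 and 24.1 CPM in the FSH21 libraries 1, 5 and 6 and at 20.6, 22.3 and 17.4 CPM in the FSH24 libraries. The low-dose controls held 19.1, 25.3 and 21.9 CPM, so both treated groups overlapped them. The log2 fold change was 0.20 (SE 0.12, adjusted p = 0.807) with FSH21 and −0.14 (SE 0.12, adjusted p = 0.893) with FSH24. The change of Bcl2 at 10 ng/ml exceeded that at 1 ng/ml by 0.89 on the log2 scale for FSH24 (SE 0.17, adjusted p = 0.00838). For FSH21 the dose difference was 0.64 (SE 0.17, adjusted p = 0.171), which did not pass. It passed with DESeq2 (adjusted p = 0.0376), with no filter on low counts (adjusted p = 0.0313) and with the library number as a block in edgeR (adjusted p = 0.041). Dose and library number differed together, and the 2 sets of untreated libraries had mean Bcl2 levels of 22.1 ± 3.11 (low-dose controls) and 21.1 ± 3.39 CPM (high-dose controls).

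**Figure D2:**
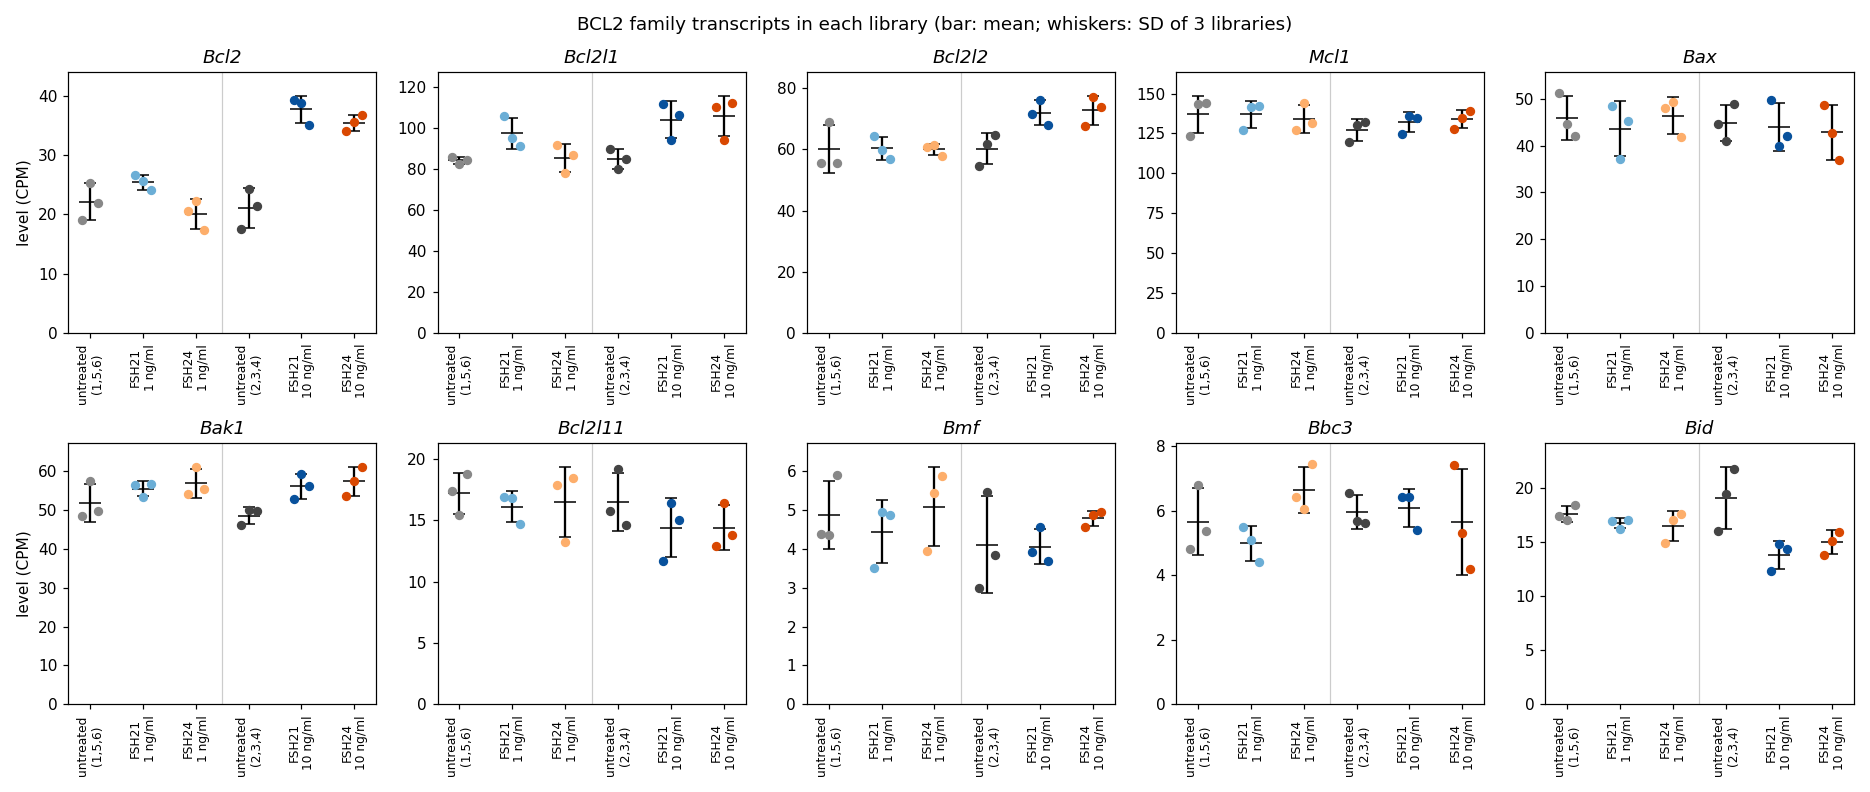
CPM of each of the 10 members in all 18 libraries, by group; points are libraries, the bar is the mean and the whiskers the SD of 3 libraries. In the Bcl2 panel the libraries at 10 ng/ml lie between 34.0 and 39.2 CPM, above the untreated libraries at 17.5 to 25.3 CPM.

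Bcl2l1 encodes BCL-XL, the protective protein that also restrains BAX at the mitochondrion, and lies on the minus strand of chromosome 2 (ENSMUSG00000007659, chr2:152780668-152831728). It was at 89.8, 80.3 and 84.9 CPM in the high-dose controls 2, 3 and 4. FSH21 at 10 ng/ml gave 111.6, 94.1 and 106.3 CPM and FSH24 gave 110.3, 94.3 and 112.2 CPM. The groups did not overlap, and in each of the 3 groups library 3 was the lowest. The log2 fold change was 0.29 (SE 0.081, adjusted p = 0.0274) with FSH21 and 0.31 (SE 0.081, adjusted p = 0.0199) with FSH24. These calls rested on the full set of libraries. With that set they also passed in DESeq2 (adjusted p = 0.0191 with FSH21 and 0.0102 with FSH24). They passed too with the library number as a block in edgeR (adjusted p = 0.00114 and 0.000758). For FSH21 the adjusted p rose to 0.155 without high-dose control 3, 0.117 without control 4, 0.168 without FSH21 library 2, 0.0969 without FSH21 library 4 and 0.0534 when only the groups compared were fitted. For FSH24 it rose to 0.124 without high-dose control 3, 0.101 without control 4, 0.115 without FSH24 library 2 and 0.143 without FSH24 library 4. At 1 ng/ml FSH21, Bcl2l1 was at 105.9, 95.2 and 91.1 CPM against 85.8, 82.6 and 84.2 CPM in the low-dose controls, again without overlap, with a log2 fold change of 0.21 (SE 0.081) and an adjusted p of 0.54. FSH24 at that dose gave 91.5, 78.2 and 86.8 CPM, overlapping the controls.

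Bcl2l2 and Mcl1 are the remaining protective genes among the members followed here. Bcl2l2 (BCL-W) was at 54.5, 61.8 and 64.6 CPM in the high-dose controls, at 71.7, 76.3 and 68.1 CPM with 10 ng/ml FSH21 and at 67.6, 77.0 and 73.7 CPM with 10 ng/ml FSH24. Both treated groups lay above the controls without overlap, but the adjusted p was 0.0684 (log2 fold change 0.26, SE 0.086) with FSH21 and 0.0601 (0.27, SE 0.086) with FSH24. With all 6 untreated libraries as controls the adjusted p was 0.0179 and 0.0149. In DESeq2 it was 0.0581 with FSH21 and 0.0436 with FSH24. Part of its exons, 594 bases, is shared on the same strand with Gm20521, whose mean was 3.53 CPM in the high-dose controls, so some reads of the 2 genes cannot be told apart. Mcl1, whose short-lived product binds BIM and BAK1, stayed between 119 and 144 CPM in all 18 libraries, with log2 fold changes of 0.05 and 0.07 at 10 ng/ml. Its 95% intervals at that dose ran from −0.10 to 0.20 with FSH21 and from −0.08 to 0.22 with FSH24.

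The pore formers were not called by edgeR. Bax was at 44.5, 41.1 and 48.8 CPM in the high-dose controls, at 49.6, 39.9 and 42.1 CPM with 10 ng/ml FSH21 and at 48.8, 42.8 and 36.9 CPM with 10 ng/ml FSH24. These groups overlapped throughout, and the 95% interval of the log2 fold change was −0.28 to 0.22 for FSH21 and −0.32 to 0.18 for FSH24. Gm45808 shares 192 exon bases with Bax on the same strand and had a mean of at most 1.03 CPM in any group. Bak1 was at 46.0, 49.9 and 49.7 CPM in the high-dose controls, at 52.8, 59.2 and 56.1 CPM with FSH21 and at 53.5, 57.4 and 60.9 CPM with FSH24. Here the treated groups lay above the controls without overlap, at a log2 fold change of 0.21 (SE 0.075, adjusted p = 0.0948) with FSH21 and 0.24 (SE 0.075, adjusted p = 0.058) with FSH24. DESeq2 called Bak1 with FSH24 (adjusted p = 0.0412) and not with FSH21 (adjusted p = 0.0894). Exons of Ggnbp1 on the opposite strand overlap those of Bak1, and its mean lay between 3.55 and 5.90 CPM.

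Of the BH3-only genes, edgeR called Bid alone. It lies on the minus strand of chromosome 6 (ENSMUSG00000004446, chr6:120891930-120916853). The high-dose controls 2, 3 and 4 held 16.05, 19.4 and 21.7 CPM, a wide spread. FSH21 at 10 ng/ml gave 12.3, 14.8 and 14.3 CPM, and FSH24 gave 13.8, 15.1 and 15.96 CPM. Both treated groups lay below the controls, although FSH24 library 4 lay just under high-dose control 2, at 16.05 CPM. The log2 fold change was −0.46 (SE 0.11, adjusted p = 0.0103) with FSH21 and −0.35 (SE 0.11, adjusted p = 0.0602) with FSH24. The FSH21 call was lost without high-dose control 4 (adjusted p = 0.0598), the highest of the controls. The FSH24 value passed with DESeq2 (adjusted p = 0.0322), without high-dose control 2 (adjusted p = 0.0127) and with the library number as a block in edgeR (adjusted p = 0.0153). At 1 ng/ml the log2 fold change of Bid was −0.08 with FSH21 and −0.10 with FSH24. Bid shares 628 exon bases with Bcl2l13 on the opposite strand, and whether the counting used strand was not given. The level of Bcl2l13 was 103 CPM in the high-dose controls and 101 and 103 CPM with 10 ng/ml FSH21 and FSH24.

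The other BH3-only genes overlapped their controls at every dose and form. Bcl2l11 (BIM), a target of FOXO factors in other cells, was at 15.7, 19.2 and 14.7 CPM in the high-dose controls, at 11.7, 16.4 and 15.04 CPM with 10 ng/ml FSH21 and at 12.9, 16.4 and 13.8 CPM with FSH24. Its log2 fold change was −0.20 with either form (SE 0.15, adjusted p = 0.506 and 0.524), with 95% intervals from −0.51 to 0.12. Bmf, which responds to loss of cell attachment, lay between 2.99 and 5.88 CPM over the 18 libraries. Bbc3 (PUMA), a target of p53, lay between 4.18 and 7.43 CPM. At these low levels the 95% intervals were wide, from −0.49 to 0.46 for Bmf and from −0.37 to 0.44 for Bbc3 with 10 ng/ml FSH21.

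**Figure D3:**
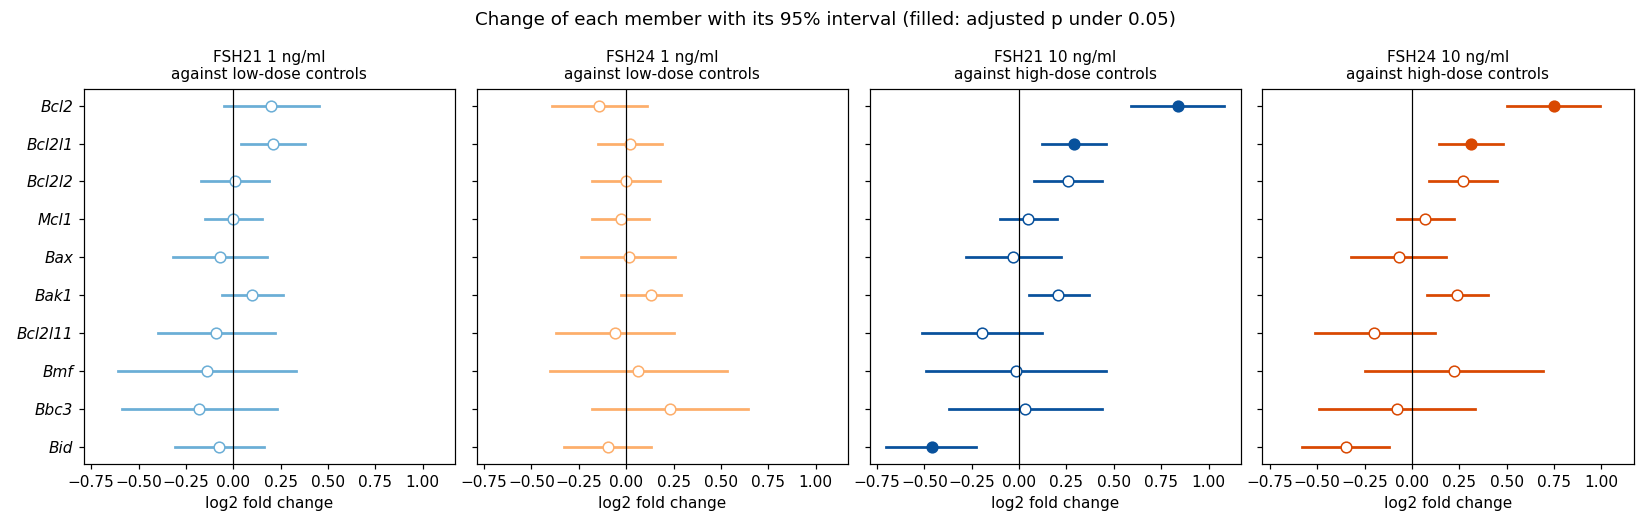
Log2 fold change of each member against the untreated libraries of the same numbers, with its 95% interval, in the 4 comparisons; filled points have an adjusted p under 0.05. Filled points are Bcl2 and Bcl2l1 at 10 ng/ml of either form and Bid with 10 ng/ml FSH21 (−0.46); at 1 ng/ml every point is open.

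Since the members were chosen with earlier results of these data known, the counts that follow are a description. Counted as a family, 3 of 10 members were called with 10 ng/ml FSH21, where 10.2% of all tested genes were called. Of these, 2 were higher, against 5.96% of genes called higher, and 1 was lower, against 4.21% called lower. With 10 ng/ml FSH24, 2 of 10 were called, both higher, where 8.42% of genes were called, 5.12% higher and 3.30% lower. DESeq2 called 5 of 10 with 10 ng/ml FSH24, adding Bcl2l2 and Bak1 higher and Bid lower, and the same 3 as edgeR with FSH21. Of the genes to which it gave an adjusted p, DESeq2 called 1957 of 17845 with FSH24 and 2308 of 18528 with FSH21. The groups did not overlap for 5 members in each of these comparisons, Bcl2, Bcl2l1, Bcl2l2 and Bak1 above the controls and Bid below them, where 27.7% of all genes with FSH21 and 24.5% with FSH24 did not overlap. The median log2 fold change of the 10 members was 0.04 with FSH21 and 0.15 with FSH24, beside 0 over all genes, and 6 of the 10 were above 0 in each. Both comparisons used the same high-dose controls. Leaving out high-dose control 4 reduced the FSH21 count to 1, and leaving out high-dose control 3 or 4 or FSH24 library 2 or 4 reduced the FSH24 count to 1, with Bcl2 the member left. Libraries with the same number deviated together in the FSH21 comparison. With the number as a block in edgeR, 5 members were called there, adding Bcl2l2 (adjusted p = 0.0205) and Bak1 (adjusted p = 0.0384). The block also called 5 with FSH24, adding Bcl2l2 (adjusted p = 0.0164) and Bak1 (adjusted p = 0.0192) higher and Bid (adjusted p = 0.0153) lower. It raised the calls over all 18727 genes too, from 1906 to 2819 with FSH21 and from 1577 to 2547 with FSH24.

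No member was called at 1 ng/ml with either form by edgeR or DESeq2. With FSH21, 1 member (Bcl2l1) had an unadjusted p under 0.05, and edgeR called 0.128% of all genes. DESeq2 called 107 of 17845 genes with FSH21, and edgeR with the library number as a block called 226 of 18727. With FSH24 no member had an unadjusted p under 0.05, and 0% of all genes were called. In edgeR's test 5.98% of genes had an unadjusted p under 0.05 there, and DESeq2 called 1 gene. The groups did not overlap for 2 members with FSH21, Bcl2l1 above and Bid below the controls, and for none with FSH24, where 12.9% and 10.3% of all genes did not overlap. The median log2 fold change of the members was −0.04 with FSH21 and 0.01 with FSH24.

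The 2 FSH forms differ in the sugar chains of the hormone's beta subunit. At 10 ng/ml, no member was called between them by edgeR or DESeq2, no member had an unadjusted p under 0.05, and 0% of all genes were called by edgeR. DESeq2 called 5 genes in that comparison, and 2.19% of genes had an unadjusted p under 0.05 in edgeR. The FSH21 minus FSH24 difference of Bcl2 was 0.09 on the log2 scale, with a 95% interval from −0.15 to 0.33. For Bcl2l1 it was −0.02 (−0.19 to 0.15) and for Bid −0.11 (−0.35 to 0.12). The groups did not overlap for 1 member, Bmf, at 3.69 to 4.54 CPM with FSH21 and 4.56 to 4.94 CPM with FSH24 (difference −0.24, 95% interval −0.71 to 0.23), where 7.10% of all genes did not overlap. At 1 ng/ml, edgeR called 0.0107% of genes between the forms and DESeq2 called 213 of 11026 genes. No member was called by either tool, but DESeq2 gave no adjusted p for Bmf and Bbc3 and could not call them. The groups did not overlap for 2 members there, Bcl2 and Bbc3, where 14.9% of all genes did not overlap. Bcl2 was at 24.1 to 26.7 CPM with FSH21 and 17.4 to 22.3 CPM with FSH24, with a difference of 0.34 (95% interval 0.09 to 0.59, unadjusted p = 0.01, adjusted p = 0.361). Bbc3 was lower with FSH21, at 4.41 to 5.49 CPM against 6.03 to 7.43 CPM with FSH24 (difference −0.41, unadjusted p = 0.0503, adjusted p = 0.531). Bcl2l1 was the other member with an unadjusted p under 0.05 (difference 0.19, adjusted p = 0.481).

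The effect of dose on the change was called for 1 member with FSH24 (Bcl2), where 2.45% of genes were called, and for none with FSH21 by edgeR, where 0.272% were called. For FSH21, Bcl2 and Bid had an unadjusted p under 0.05, and DESeq2 called Bcl2. Between the low-dose and high-dose controls no member was called by edgeR or DESeq2, no member had an unadjusted p under 0.05, and 0% of all genes were called by edgeR (5.45% with an unadjusted p under 0.05, and 1 gene called by DESeq2).

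Protective transcripts were set against the pore former Bax alone, as the ratio of CPM within each library. This is a description with no test that compares the same pair of genes across groups. Ratios to Bak1, the other pore former, were not taken. Bak1 itself changed by 0.21 and 0.24 on the log2 scale with 10 ng/ml FSH21 and FSH24, beside 0.29 and 0.31 for Bcl2l1. The log2 ratio of Bcl2 to Bax was −1.34, −0.76 and −1.18 in the high-dose controls 2, 3 and 4. It was −0.34, −0.04 and −0.26 with 10 ng/ml FSH21 and −0.52, −0.27 and 0 with 10 ng/ml FSH24. The treated libraries all lay above the controls, and the mean moved from −1.09 ± 0.30 to −0.22 ± 0.15 and −0.26 ± 0.26 (SD, n = 3). The mean log2 ratio was −1.06 ± 0.32 in the low-dose controls, −0.77 ± 0.20 with 1 ng/ml FSH21 and −1.21 ± 0.063 with 1 ng/ml FSH24, with FSH21 overlapping the controls and FSH24 within their range. Bcl2l1 to Bax moved less, from 0.93 ± 0.11 to 1.25 ± 0.084 with 10 ng/ml FSH21 and 1.31 ± 0.26 with FSH24. Mcl1 to Bax was 1.51 ± 0.14 in the high-dose controls, 1.59 ± 0.23 with FSH21 and 1.65 ± 0.26 with FSH24, a shift smaller than the SD of the treated groups. Bcl2 to Bcl2l11, a protective transcript against that of a BH3-only protein it binds, moved from 0.35 ± 0.20 to 1.40 ± 0.30 and 1.31 ± 0.17.

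**Figure D4:**
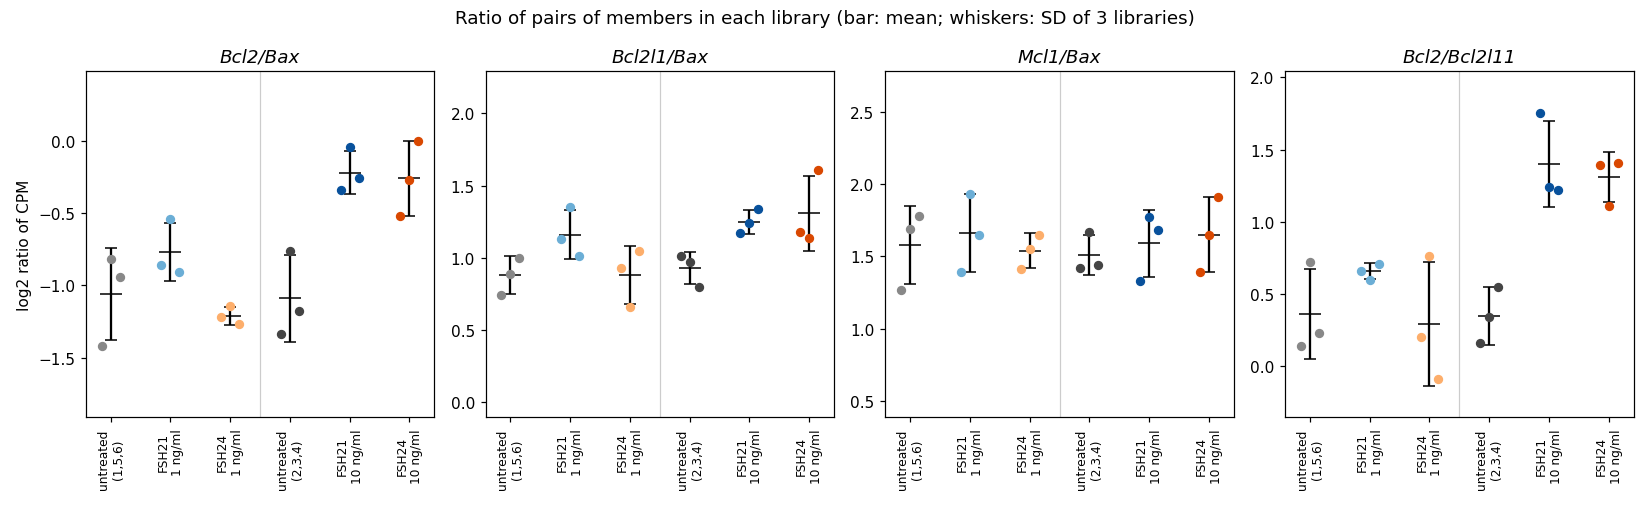
Log2 ratio of the CPM of pairs of members in each library, by group, with the mean and SD of 3 libraries; the 4 panels span the same height. Bcl2/Bax is at −1.09 in the high-dose controls and at −0.22 and −0.26 with 10 ng/ml FSH21 and FSH24, while Mcl1/Bax is at 1.51, 1.59 and 1.65.

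Around the family, 61 other genes of cell death were examined in 6 lists, and 55 of them were tested. The lists too were chosen with earlier results of these data known, so their counts are a description. With 10 ng/ml FSH21, 6 were called higher and 2 lower, against the 5.96% and 4.21% of all genes given above. FSH24 at the same dose gave 2 called higher and 1 lower, against 5.12% and 3.30% of all genes. None was called by edgeR at 1 ng/ml with either form. There, 7 of the 55 had an unadjusted p under 0.05 with FSH21 and 5 with FSH24, beside 7.32% and 5.98% of all genes, and DESeq2 called 1 with FSH21 and none with FSH24. The median log2 fold change of the 55 genes was 0.06 with either form at 10 ng/ml.

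Upstream of Bid, Casp8, the initiator caspase of death receptors that cleaves BID, rose with 10 ng/ml FSH21. It was at 24.4, 20.2 and 21.9 CPM in the high-dose controls and at 30.6, 31.5 and 33.2 CPM with FSH21, a log2 fold change of 0.52 (SE 0.097, adjusted p = 0.00153) that was called in 12 of 12 other fits. With FSH24 it was at 26.5, 30.2 and 25.9 CPM (log2 fold change 0.31, adjusted p = 0.0558). The transcript of the protein that cuts BID and that of BID itself thus moved in opposite directions with FSH21. Htra2, a mitochondrial protease that counters caspase inhibitors once released, was lower with FSH21, at 21.3 to 22.3 CPM against 26.9 to 27.6 CPM (log2 fold change −0.33, adjusted p = 0.0179). Birc2, a ubiquitin ligase that inhibits caspase signalling, was higher at 51.2 to 53.6 CPM against 43.9 to 46.9 CPM (0.23, adjusted p = 0.0399). Casp9, the initiator caspase of the mitochondrial route, and Apaf1, the scaffold of the apoptosome, did not pass the test, with log2 fold changes of 0.05 and 0.02 at 10 ng/ml FSH21.

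Among the transcription factors, Foxo1, a forkhead factor abundant in granulosa cells and restrained by FSH signalling, fell with both forms. It was at 540, 533 and 517 CPM in the high-dose controls, at 379, 317 and 383 CPM with 10 ng/ml FSH21 and at 387, 330 and 477 CPM with FSH24. The log2 fold change was −0.56 (SE 0.12, adjusted p = 0.00645) with FSH21 and −0.41 (SE 0.12, adjusted p = 0.0465) with FSH24. Its untreated level was 674 ± 50.4 CPM in the low-dose controls and 530 ± 11.5 CPM in the high-dose controls, without overlap (adjusted p = 0.901). Foxo3, its relative in the oocyte, had log2 fold changes of 0.12 and 0.04 at 10 ng/ml and was not called. Trp53 (−0.15 and −0.12) and Trp63 (−0.03 and −0.15), which encode p53 and the oocyte guardian p63, were not called either. Cdkn1a, the p53 target that encodes p21, rose with FSH21 from 18.7 to 25.0 CPM in the controls to 29.9 to 41.3 CPM (log2 fold change 0.61, adjusted p = 0.0409). With FSH24 it was at 29.3 to 37.7 CPM (0.50, adjusted p = 0.111).

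Of the 10 genes for partners and turnover of the family, 3 were called higher with 10 ng/ml FSH21 and 2 with FSH24. The shares of all genes called higher were 5.96% and 5.12%. No gene in the lists of other BCL2 relatives or death receptors was called at this dose. Dynll1, a dynein light chain that binds BIM, was at 143, 124 and 129 CPM in the high-dose controls, at 161, 166 and 170 CPM with FSH21 and at 170, 156 and 147 CPM with FSH24. Its log2 fold change was 0.33 (SE 0.068, adjusted p = 0.00321) with FSH21 and 0.26 (SE 0.068, adjusted p = 0.0224) with FSH24. Usp9x, a deubiquitinase that stabilises MCL1, was at 513 to 719 CPM in the controls, 759 to 791 CPM with FSH21 and 733 to 880 CPM with FSH24 (log2 fold changes 0.38 and 0.43, adjusted p = 0.0281 and 0.0155). Vdac3, a channel of the mitochondrial outer membrane, moved from 158 to 177 CPM in the controls to 185 to 195 CPM with FSH21 (0.19, adjusted p = 0.0399). Casp8, Foxo1 and Dynll1 kept their FSH21 calls without each library. Htra2 lost its call without FSH21 library 2 or 3, Birc2 without each of the 6 libraries, and Cdkn1a, Vdac3 and Usp9x each without 5 of the 6. The FSH21 count fell to 3 without FSH21 library 2 or 3, to 4 without high-dose control 4, to 5 without control 2 or FSH21 library 4. The FSH24 count fell to 0 without high-dose control 4 and to 1 without control 3 or FSH24 library 2. The FSH24 calls of Foxo1, Usp9x and Dynll1 were lost without 5, 4 and 3 of the 6 libraries.

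**Figure D5:**
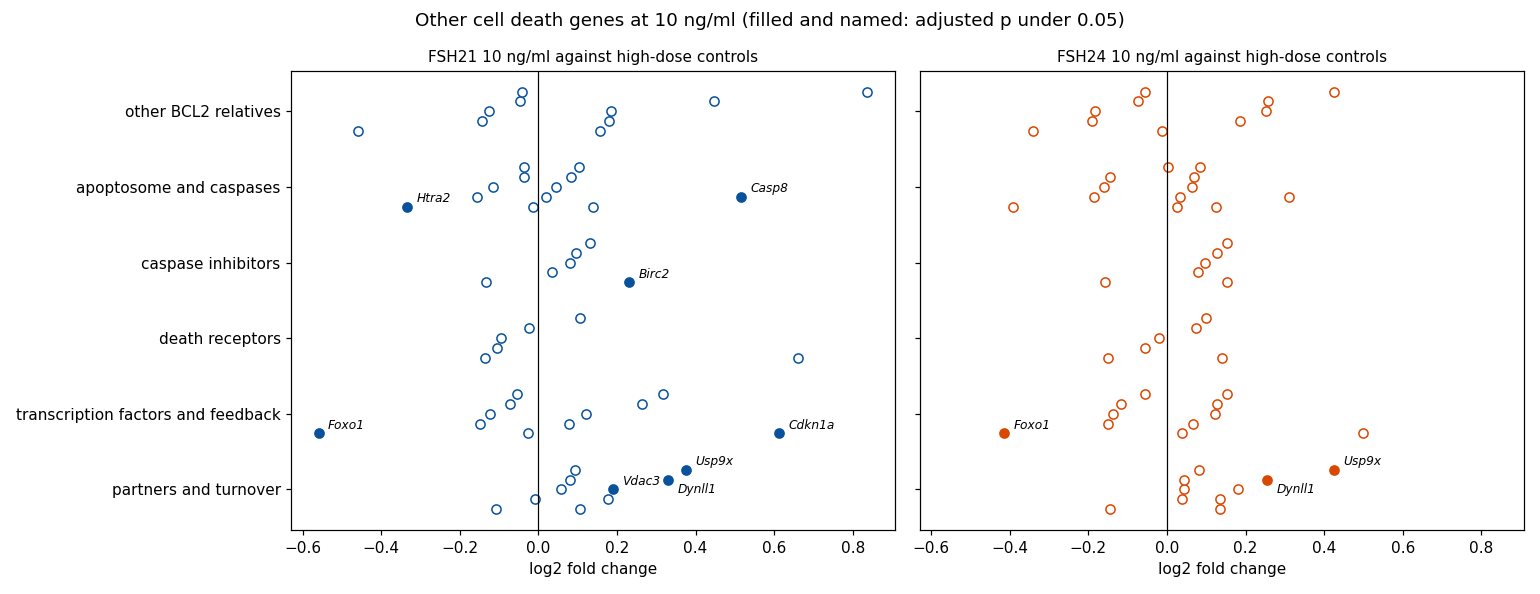
Log2 fold change of the 55 tested genes of the 6 cell death lists at 10 ng/ml of FSH21 or FSH24 against the high-dose controls; each point is a gene, and filled points have an adjusted p under 0.05. With FSH21 8 genes are filled, from Foxo1 at −0.56 to Cdkn1a at 0.61, and with FSH24 3 genes are filled.

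Some cell-type markers moved at the same dose. With 10 ng/ml FSH21, 3 of 8 granulosa markers (Foxl2, Kitl, Gata4) were called higher, and the same 3 were with FSH24. Of all genes, 5.96% and 5.12% were called higher. Fshr, the FSH receptor, lay lower without overlap with FSH21, at 12.3 to 19.9 CPM against 21.4 to 28.8 CPM in the high-dose controls (log2 fold change −0.58, adjusted p = 0.198), and at 17.4 to 23.6 CPM with FSH24. The 8 genes summed to 4420 to 5860 CPM in the high-dose controls, 5830 to 6190 CPM with FSH21 and 5360 to 5760 CPM with FSH24. None of the 10 oocyte markers was called by edgeR, although 10 of 10 were below 0 with either form, with a median of −0.14 for FSH21 and −0.18 for FSH24. Unadjusted p in edgeR's test was under 0.05 for 2 of them with FSH21 and for 4 with FSH24, beside 22% and 20.8% of all genes. Their sum was 4220 to 4430 CPM in the high-dose controls, 3710 to 4150 CPM with FSH21 and 3680 to 3980 CPM with FSH24. The untreated low-dose controls, at 3510 to 4060 CPM, lay in the range of the treated groups or below it, so the high-dose controls stood apart in these genes. Between the 2 sets of controls 10 of 10 oocyte markers were lower in the low-dose controls, with a median of −0.18. Of these, 5 had an unadjusted p under 0.05, beside 5.45% of all genes. None of the 10 was called by edgeR there. Cyp17a1 and Star of the 5 theca markers and Krt8 of the 4 surface epithelium markers were called higher with both forms. The theca sum was 10.8 to 12.6 CPM in the high-dose controls, 31.2 to 35.7 CPM with FSH21 and 19.9 to 39.4 CPM with FSH24. In the untreated low-dose controls it was 11 to 28.5 CPM, which overlaps the FSH24 range. None of the 7 stromal markers, the 4 endothelial markers or the 1 tested of 4 immune markers was called by edgeR. The 7 stromal markers were all below 0 with either form, with a median of −0.27 with FSH21 and −0.14 with FSH24. With FSH21, 1 stromal marker and the immune marker had an unadjusted p under 0.05, and with FSH24 the immune marker did, beside the shares of all genes given above. The part of these shifts in the Bcl2, Bcl2l1 and Bid results was not tested.

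Genes whose pattern over the 18 libraries was most like that of a called member were found by Pearson's r of log2 CPM, a description since the libraries share the same treatments. For Bcl2 they were Enc1 (r = 0.947), AA414768 (0.945), Aox1, Tspyl2 and Aff4 (each 0.934). For Bcl2l1 they were Troap (0.943), Spag5 and Ccnb2 (each 0.941), Xkr5 (0.940) and Syk (0.937). Troap, Spag5 and Ccnb2 are genes of mitosis. For Bid they were Cdc42ep3 (0.903), Acvr2b and Zfp580 (each 0.869), and Ubash3b and Nrip2 (each 0.867).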

How the data were processed

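Polyadenylated RNA was sequenced in 18 libraries, each run on 4 lanes. The deposited values are expected counts per gene, which the column names show to be RSEM output with lanes merged by the authors. Tools named in the submitters' processing notes are STAR 2.7, bcl2fastq and FastQC, with the build mm10. The annotation and the use of strand are not given in the sources used here. Expected counts were rounded, filtered with filterByExpr (minimum count 10) and fitted over all 18 libraries with edgeR 4.0.16 (TMM, robust quasi-likelihood) in R 4.3.3, with Benjamini-Hochberg adjustment over 18727 genes. Alternatives were DESeq2 1.42.0, no filter, RLE scaling, a replicate block, only the groups compared, all 6 untreated libraries as controls and leaving out each library. CPM used TMM library sizes. Positions and exon lengths came from GENCODE M21 on GRCm38, promoters from RefSeq. The depth was 17512962 to 22509759 counts per library. In the comparison of 10 ng/ml FSH21 with its controls, the deviations of same-numbered libraries from their group means correlated at 0.19, 0.21 and 0.13, so the replicate number was also fitted there as a block. Named were all members, the listed cell death genes called in at least 1 comparison with controls, Trp53, Trp63, Casp9, Apaf1 and Foxo3, and the 5 genes most alike in pattern; 1 further gene of this rule is not reported here. Members and lists were chosen with earlier results of these data known. The test was checked on simulated counts, drawn with the same relative spread for every gene and with no effect of library number. It was not checked for libraries that deviate together.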

Additional observations from a re-analysis of the deposited data

Results flagged for a closer look

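The effect of FSH24 on Bcl2 differed between the doses. The log2 change at 10 ng/ml exceeded that at 1 ng/ml by 0.89 (SE 0.17, adjusted p = 0.00838 in edgeR's test of the interaction), and the call held in 17 of 17 other fits, with adjusted p from 8.84e-05 to 0.0309. Usp9x, which encodes the deubiquitinase of MCL1, differed in the same way by 0.59 (SE 0.15, adjusted p = 0.0422). Its mean was 627 CPM in the low-dose controls, 558 with 1 ng/ml FSH24, 600 in the high-dose controls and 805 with 10 ng/ml FSH24. Dose and library number set differed together in both results.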

How the results depend on the processing

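Called members kept their direction in every alternative run. Over the 40 changes of members against controls, 458 of 480 alternative values had the same call and direction, 10 lost the call and 12 gained it. Of the 35 uncalled changes, 16 changed sign in at least 1 alternative. Leaving out single libraries gave 1 to 3 called members with 10 ng/ml FSH21 and 1 to 3 with FSH24. Other cell death genes then numbered 3 to 6 with FSH21 and 0 to 3 with FSH24. DESeq2 called 5 members with 10 ng/ml FSH24, 5 other cell death genes there, 1 with 1 ng/ml FSH21 and 1 member for the FSH21 dose difference. Over all genes it called 1957 of 17845, 107 of 17845 and 163 of 13073 in these comparisons, in that order. With no filter on low counts, 5 other cell death genes were called with 10 ng/ml FSH21 and 1 member for the FSH21 dose difference. With FSH24 at 10 ng/ml, 0 other cell death genes were called when only the groups compared were fitted and 6 with all 6 untreated libraries as controls. The cause of these differences was not tested. With the replicate number as a block, 5 members were called with 10 ng/ml FSH21 and 5 with FSH24. For the dose difference the block called 1 member with FSH21 (Bcl2) and 2 with FSH24 (Bcl2 and Bcl2l1). It also called 7 other cell death genes with 10 ng/ml FSH24 and 1 with 1 ng/ml FSH21. Over all 18727 genes the block called 2819 and 2547 with 10 ng/ml FSH21 and FSH24, and 226 with 1 ng/ml FSH21. For the dose difference it called 229 with FSH21 and 1180 with FSH24. Over all group pairs the same-numbered correlations were 0.05 to 0.23, 12 of 18 were above 0.1, and 18 of 18 pairs matched best with their own number. In the labels, each number was shared by an untreated, an FSH21 and an FSH24 library. What the number stands for was not given, and the main fit did not use it. Bmf was so low that its interval with 10 ng/ml FSH21 (−0.49 to 0.46) still held a change of the size seen in Bid.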
